A study of Mus musculus with 8 samples.

Results

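The genes described here encode the machinery that licenses replication origins and builds and runs the replication fork: 45 named genes, all of them rows of the deposited count table of 54532 genes and all of them above the filter on low counts. They were taken by symbol from a list of origin, helicase, polymerase, clamp, single-strand binding, ligation and chromatin assembly factors. RNA had been sequenced from LSK cells, the fraction of mouse bone marrow without lineage markers and with Sca-1 and c-Kit, which holds the blood stem cells and earliest progenitors. There were 3 libraries from AML1/ETO mice on C57BL/6, whose genotype label is Runx1-Runx1t1, the fusion of a recurrent translocation of acute myeloid leukaemia, and 5 control libraries from wild-type C57BL/6 mice. Mice of both groups had received poly(I:C), a synthetic RNA duplex, at 5 mg/kg in 4 injections on alternate days, and cells were sorted 4 weeks later. How the fusion allele is driven, the age of the mice and whether each library is a separate mouse are not given in the labels, so p-values measure only the spread between these libraries.

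Origins are marked in G1 phase by the origin recognition complex (ORC), on which CDC6 and CDT1 load the MCM2-7 helicase. At the start of S phase the kinase pair CDC7-DBF4 and the factors CDC45, GINS and MCM10 turn the loaded MCM ring into a moving helicase, polymerase alpha-primase starts each new strand, and polymerases delta and epsilon extend it on the sliding clamp PCNA, which the RFC complex loads. FEN1 and LIG1 finish lagging-strand fragments and CAF-1 puts histones on the new DNA. Many of these genes are transcribed in waves at the G1/S border by E2F factors, and most long-term blood stem cells are quiescent, whereas their progeny in the LSK gate divide more often.

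Library totals were 14693080 to 16433454 counted reads in AML1/ETO and 16374232 to 17527043 in controls, and 13446 to 14284 genes had a read in AML1/ETO and 13660 to 17131 in controls. Runx1t1, the ETO partner of the fusion, had 712 to 1971 reads in AML1/ETO and 27 to 132 in controls, so each library went with its label. Transcripts of the sex chromosomes split the libraries in the same way: Xist had 28559 to 33151 reads in AML1/ETO and 0 to 111 in controls, and the Y-linked Ddx3y had none in AML1/ETO and 3688 to 5038 in controls. For every gene given here, a difference by genotype and a difference by sex of the source mice cannot be told apart. Kit, which encodes the sorting marker c-Kit, stood at 913 to 1697 CPM (counts per 1000000 reads of the TMM-scaled library) in AML1/ETO and 378 to 469 CPM in controls. Ly6a, which encodes Sca-1, stood at 221 to 921 CPM in AML1/ETO and 8.26 to 23.4 CPM in controls, sorted through the same gate. Markers of several other cells differed between the groups. Of all 15009 tested genes, 14.2% fell and 11.6% rose by the edgeR test given below. All 7 tested of 10 mast cell genes rose, and the mast cell chymase Cma1 was at 0 in every control. The 10 together summed to 3234 to 7849 CPM in AML1/ETO against 268 to 342 CPM in controls. Gata2 made up most of the control sum (220 to 304 CPM), and Cpa3 led the AML1/ETO sum (1771 to 6135 CPM). The mast cell genes not tested had 111 to 339 reads in AML1/ETO library 1, at most 28 in library 2, and none in library 3 or in controls. Of tested marker genes, 5 of 9 neutrophil, 3 of 8 monocyte and macrophage, 5 of 7 B cell and the only T and NK cell gene fell. Of 7 erythroid genes 1 fell and 1 rose, near the shares of all tested genes, and of 6 megakaryocyte genes 2 fell and 2 rose. Summed neutrophil genes ran from 194 to 1085 CPM in AML1/ETO and 1349 to 3499 CPM in controls, and monocyte and macrophage genes from 46.9 to 65.8 CPM in AML1/ETO and 148 to 271 CPM in controls. B cell genes ran from 5.30 to 10.8 CPM in AML1/ETO, where 6 of 8 were at 0, and 76.4 to 231 CPM in controls. Ighm led that control sum (69.9 to 169 CPM), and 1 of the 6 was at 0 in every control too. T and NK cell genes ran from 2.27 to 9.31 CPM in AML1/ETO and 60.9 to 115 CPM in controls. Nearly all of that control sum was Nkg7 (60.9 to 114 CPM), and the T cell gene Cd3e was at 0 in all libraries. Erythroid genes ran from 16.96 to 71.1 CPM in AML1/ETO and 11.3 to 70.1 CPM in controls, and megakaryocyte genes from 313 to 993 CPM in AML1/ETO and 344 to 496 CPM in controls. The part of these markers in the results on replication genes was not tested. In RNA from a sorted population, fewer cycling cells and less RNA of a gene per cell cannot be told apart, and this holds for every level given here.

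As a group, replication genes were lower in AML1/ETO LSK cells, in libraries that also differed completely in Xist and Y-linked reads. Their summed level was 2012, 2898 and 2322 CPM in AML1/ETO and 4068 to 4836 CPM in controls. By edgeR's quasi-likelihood test over all 15009 tested genes (Benjamini-Hochberg adjusted p under 0.05), 20 of the 45 members fell and 1 rose, where 14.2% of all tested genes fell and 11.6% rose (2128 and 1734 genes, or 2712 and 1407 with library totals as the scaling, which lowered the median of all genes to −0.24). The remaining 24 did not pass, 18 of them with a negative log2 fold change. The median log2 fold change (AML1/ETO over control) of the members was −1.08, and that of all tested genes −0.09. Every AML1/ETO library was below every control library for 26 members and above every control for 2, against 17.5% and 14.1% of all tested genes. The counts differed along the pathway: all 6 MCM2-7 genes and both loading factors fell, none of the 6 ORC genes passed, and the loader subunit Rfc2 rose.

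**Figure D1:**
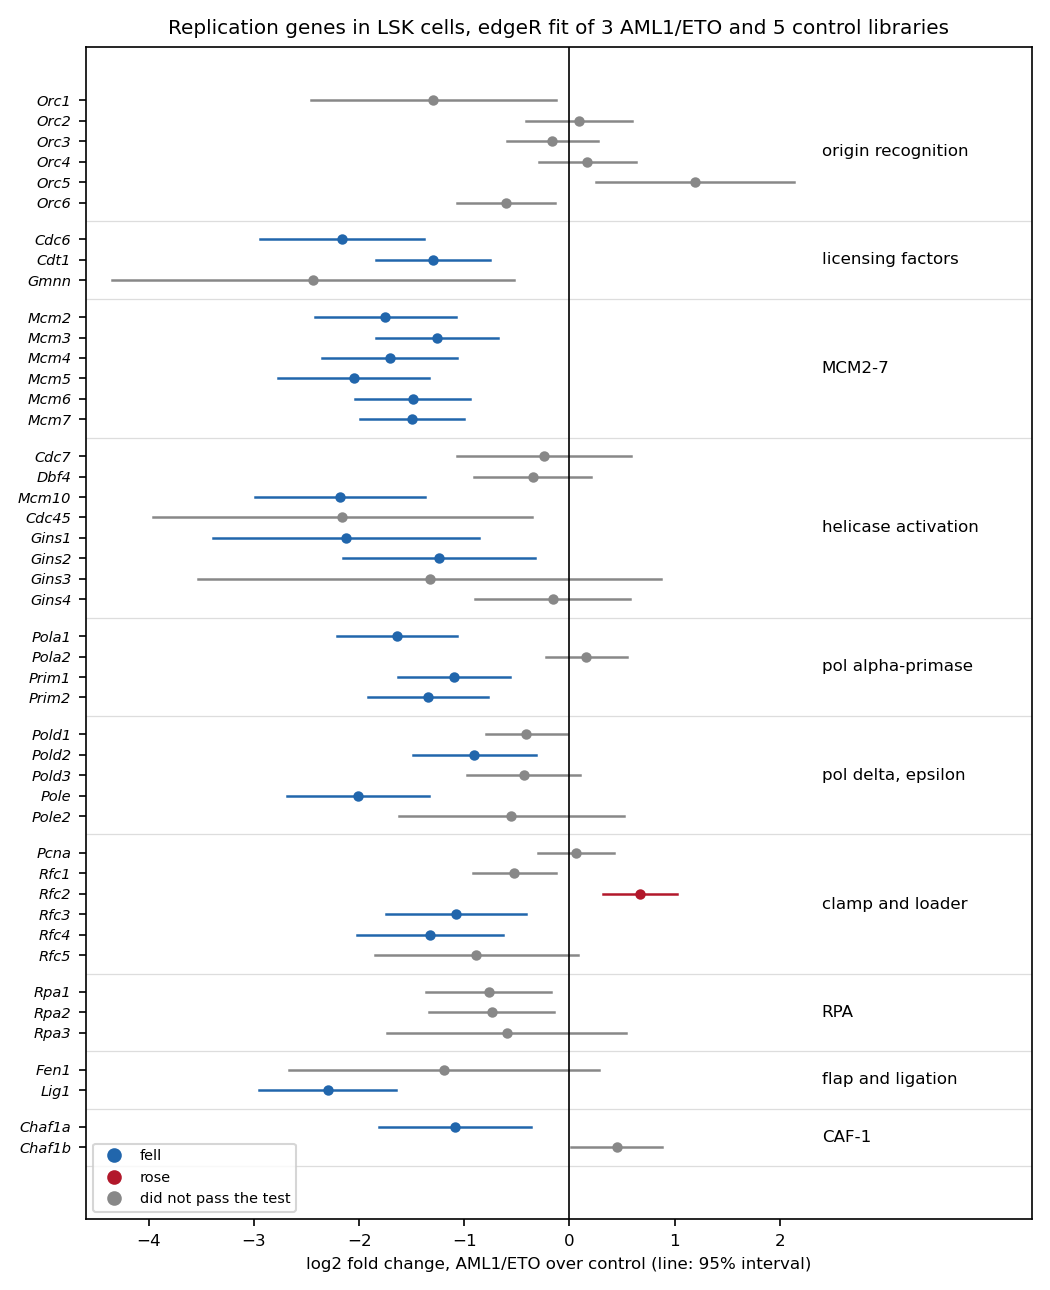
Log2 fold change (AML1/ETO over control, x axis) of each of the 45 genes with its 95% interval from the edgeR fit of 3 AML1/ETO and 5 control libraries, grouped by role; blue genes fell, the red gene (Rfc2) rose and grey genes did not pass. All 6 MCM2-7 genes lie between −2.05 and −1.26, while the ORC genes lie on both sides of 0.

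Summed levels by library were as follows. The MCM2-7 genes together stood at 20.6%, 49.9% and 29.6% of the control mean in AML1/ETO libraries 1, 2 and 3, against 90.2% to 110% in single controls. The licensing factors Cdc6, Cdt1 and Gmnn stood at 38.1%, 34.7% and 25.7%, against 79.5% to 115% in controls. The ORC genes stood at 89.1%, 96.3% and 94.1%, against 95.8% to 106% in controls, so that these sums overlap between the groups. The clamp and its loader also overlapped, at 94.1%, 103% and 106%, against 87.6% to 114% in controls. A sum is led by its most abundant members, and here Pcna and Rfc2 made up most of the clamp group.

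**Figure D2:**
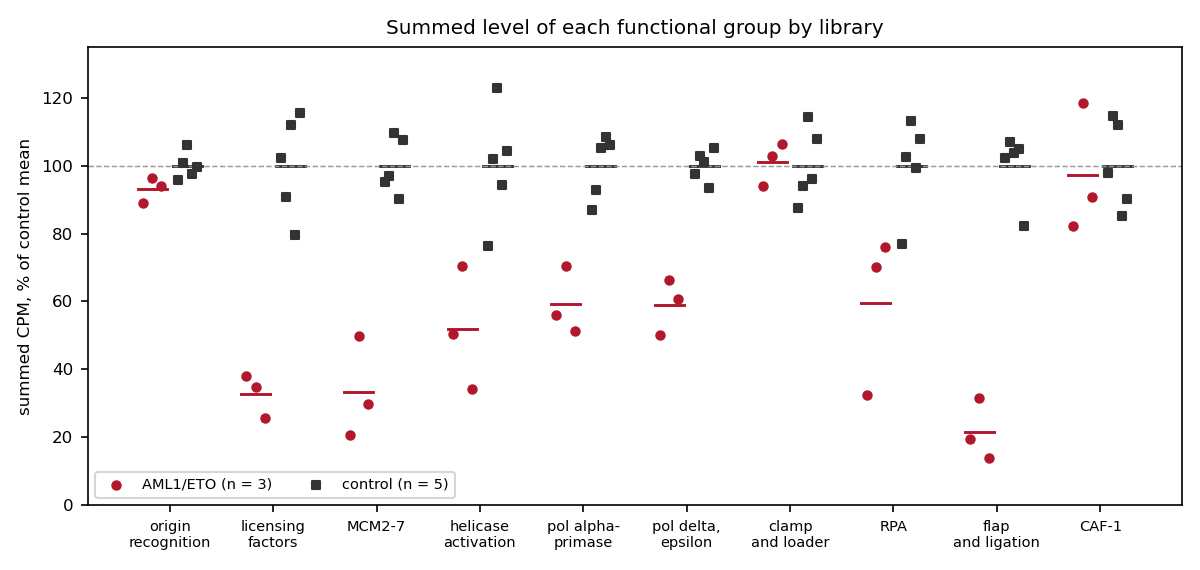
Summed CPM of each functional group in each library, as a percent of the mean of the 5 controls (y axis); red circles are the 3 AML1/ETO libraries, black squares the controls, and bars are means. MCM2-7 sums of AML1/ETO libraries lie between 20.6% and 49.9%, and ORC, clamp and CAF-1 sums overlap the controls.

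Promoters of several members are shown because genes that move with S phase often share E2F sites, and because members of a complex that moved differently can be set side by side. RefSeq promoter windows (250 bases before to 50 after the start, GRCm38.p6, the assembly of mm10) were found for 37 of the 45 genes. The windows were searched on both strands for 4 E2F octamers (TTTCCCGC, TTTCGCGC, TTTGCCGC and TTTGGCGC) and for the NF-Y pentamer CCAAT. They were also searched for the CHR hexamers TTTGAA and TTCGAA. An E2F octamer was in a window of 15 of 37 members (40.5%), of 481 of 10276 tested genes with a window (4.68%) and of 2.26% of all windows. It was in 9 of 15 members that fell and 6 of 22 that did not pass. CCAAT was in 22 of 37 members (59.5%), 42.6% of tested genes and 37.4% of all windows. A CHR hexamer was in 24.3% of members, 16.7% of tested genes and 19.2% of all windows. Its share was 26.7% in members that fell and 22.7% in those that did not pass. A match only says that these letters stand there, and whether a factor binds them was not measured.

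The 250 bases before the RefSeq start are given 5′ to 3′ on the gene's strand, with E2F octamers and CCAAT (or ATTGG, its reverse complement) in capitals. Mcm5 and Mcm6 fell and each has overlapping octamers on both strands. Pola1 fell and its partner Pola2 did not pass, as Pcna did not, and neither of these 2 has an octamer in its window. The genes shown do not stand for all members. Mcm2, Mcm10, Prim1, Pold2, Rfc4 and Chaf1a fell without an octamer in their windows. Orc1, Orc3, Gins3, Pold1, Pold3 and Pole2 have an octamer and did not pass. The windows lie on chr8:75109259-75109508 (plus strand, Mcm5), chr1:128359706-128359955 (minus, Mcm6), chrX:93632156-93632405 (minus, Pola1), chr19:5964207-5964456 (minus, Pola2) and chr2:132253181-132253430 (minus, Pcna).
Mcm5: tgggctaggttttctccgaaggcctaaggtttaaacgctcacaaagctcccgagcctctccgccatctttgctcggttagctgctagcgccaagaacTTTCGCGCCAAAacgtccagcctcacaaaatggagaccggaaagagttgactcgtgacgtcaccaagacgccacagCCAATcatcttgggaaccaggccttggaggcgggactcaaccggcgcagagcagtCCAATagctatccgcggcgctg
Mcm6: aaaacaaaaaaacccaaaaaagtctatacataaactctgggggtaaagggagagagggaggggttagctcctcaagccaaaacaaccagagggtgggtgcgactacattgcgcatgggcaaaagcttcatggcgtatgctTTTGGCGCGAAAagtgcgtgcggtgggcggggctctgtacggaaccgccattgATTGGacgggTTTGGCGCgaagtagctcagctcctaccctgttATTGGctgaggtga
Pola1: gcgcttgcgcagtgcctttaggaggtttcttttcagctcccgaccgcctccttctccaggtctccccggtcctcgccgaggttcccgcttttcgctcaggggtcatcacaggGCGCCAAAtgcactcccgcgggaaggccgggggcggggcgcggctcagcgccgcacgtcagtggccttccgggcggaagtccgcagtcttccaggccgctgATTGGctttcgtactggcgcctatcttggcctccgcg
Pola2: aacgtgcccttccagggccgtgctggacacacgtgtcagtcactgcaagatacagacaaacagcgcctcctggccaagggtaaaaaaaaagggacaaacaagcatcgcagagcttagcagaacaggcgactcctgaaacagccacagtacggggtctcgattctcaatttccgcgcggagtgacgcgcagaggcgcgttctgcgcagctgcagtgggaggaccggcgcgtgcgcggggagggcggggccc
Pcna: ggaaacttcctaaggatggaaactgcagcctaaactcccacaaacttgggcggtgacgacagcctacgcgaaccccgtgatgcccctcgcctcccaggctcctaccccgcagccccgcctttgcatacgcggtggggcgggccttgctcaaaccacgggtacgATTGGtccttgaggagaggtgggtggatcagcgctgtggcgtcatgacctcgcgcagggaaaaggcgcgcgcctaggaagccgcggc

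None of the 6 genes of ORC, the origin-binding complex, passed. Orc2 (mm10 chromosome 1, 58462771 to 58505109) stood at 35.6, 33.0 and 42.1 CPM in AML1/ETO and 33.5, 31.6, 39.9, 26.7 and 41.9 CPM in controls. Its log2 fold change was 0.09 with a 95% interval of −0.42 to 0.59, and it turned to −0.063 with library totals as the scaling and to −0.027 without AML1/ETO library 3. Orc3 and Orc4, further core subunits, stood at 51.6 to 84.3 and 40.9 to 59.9 CPM in AML1/ETO and 61.1 to 78.6 and 39.4 to 52.9 CPM in controls. They had log2 fold changes of −0.16 (interval −0.60 to 0.27) and 0.17 (−0.29 to 0.63), so that for these 3 subunits a change of the size seen for MCM2-7 lay outside the interval. Of the exon length of Orc2, 29.8% is shared with Nif3l1 on the other strand, and reads there cannot be told apart without strand. Orc1, the largest subunit, whose human protein is degraded after S phase begins, was below every control, at 10.8, 6.06 and 2.75 CPM in AML1/ETO against 27.4, 11.3, 11.9, 14.2 and 15.0 CPM in controls. It did not pass (log2 fold change −1.29, SE 0.53, adjusted p = 0.0968). The gene passed on leaving out AML1/ETO library 1 (−1.86, adjusted p = 0.0332), as it did without both first libraries (−1.58, adjusted p = 0.0478), while the highest adjusted p of any alternative was 0.233. Orc6, the most loosely bound subunit, averaged 36.6 ± 5.87 CPM (SD, n = 3) in AML1/ETO and 55.5 ± 8.41 CPM (SD, n = 5) in controls, with adjusted p = 0.0587. The groups overlapped, with 43.3 CPM in AML1/ETO library 3 and 42.5 CPM in control library 5. Orc6 passed with library totals as the scaling (adjusted p = 0.0234) and without control library 5 (0.04999). Orc5, another core subunit, had the opposite sign, at 20.5, 14.1 and 29.9 CPM in AML1/ETO against 6.38, 14.8, 12.1, 7.22 and 6.37 CPM in controls, with groups that overlap at control library 2 and adjusted p = 0.0612. It passed as higher under 5 of the 16 alternatives, the lowest adjusted p being 0.0290 with DESeq2.

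Both loading factors fell. Cdc6 (chromosome 11, 98907801 to 98923940), the ATPase that joins ORC to load MCM2-7, stood at 6.13, 18.7 and 13.6 CPM in AML1/ETO and at 59.6, 51.7, 72.9, 41.7 and 61.9 CPM in controls. The groups were far apart, and the fall was 4.49-fold between means (log2 fold change −2.16, SE 0.36, adjusted p = 0.00101). Cdt1 (chromosome 8, 122568015 to 122573554), which escorts MCM2-7 to the origin, stood at 88.4, 54.6 and 40.7 CPM in AML1/ETO against 161, 143, 149, 120 and 179 CPM in controls. Group means differed 2.46-fold, and the gene passed as lower (log2 −1.30, SE 0.25, adjusted p = 0.00263). Gmnn, which encodes geminin, the inhibitor of CDT1, had no read in AML1/ETO library 1, where 0 counts allow up to 0.227 CPM on counting error alone, and 12.7 and 9.35 CPM in libraries 2 and 3, against 33.2, 30.3, 55.8, 36.0 and 45.7 CPM in controls. All 3 were below all controls, and the gene did not pass (log2 fold change −2.44, SE 0.88, adjusted p = 0.0609). Without library 1 it passed (−1.87, adjusted p = 0.00191), as it did without AML1/ETO library 2 (−3.09, adjusted p = 0.0459), without a filter (0.0242) and without both first libraries (0.00283), while the highest adjusted p of any alternative was 0.128.

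The MCM2-7 genes encode the 6 subunits of the helicase ring, and all of them fell under each of the 16 alternatives. Mcm5 (chromosome 8, 75109569 to 75128439) stood at 46.4, 130 and 47.0 CPM in AML1/ETO and 341, 313, 343, 263 and 286 CPM in controls. Mcm2, at the gate of the ring next to Mcm5, stood at 30.8, 99.8 and 59.3 CPM in AML1/ETO and 207, 216, 231, 186 and 226 CPM in controls. Both were lower in every AML1/ETO library than in any control, with log2 fold changes of −2.05 (SE 0.33, adjusted p = 0.000854) and −1.75 (SE 0.31, adjusted p = 0.00150). Mcm4, Mcm6 and Mcm7, which form the catalytic core of the ring, stood at 37.9 to 97.5, 97.8 to 215 and 71.1 to 156 CPM in AML1/ETO, against 166 to 226, 346 to 476 and 286 to 333 CPM in controls. Their log2 fold changes were −1.71, −1.49 and −1.50, with adjusted p from 0.000576 to 0.00136. Mcm3 had the smallest change of the ring, at 73.4, 182 and 156 CPM in AML1/ETO and 252, 333, 383, 319 and 358 CPM in controls (log2 fold change −1.26, SE 0.27, adjusted p = 0.00479). In the AML1/ETO group library 2 was the highest for each of the 6 genes and no AML1/ETO library reached the lowest control. Of the exon length of Mcm7, 12.6% is shared with other genes, among them Cops6 on the other strand.

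**Figure D3:**
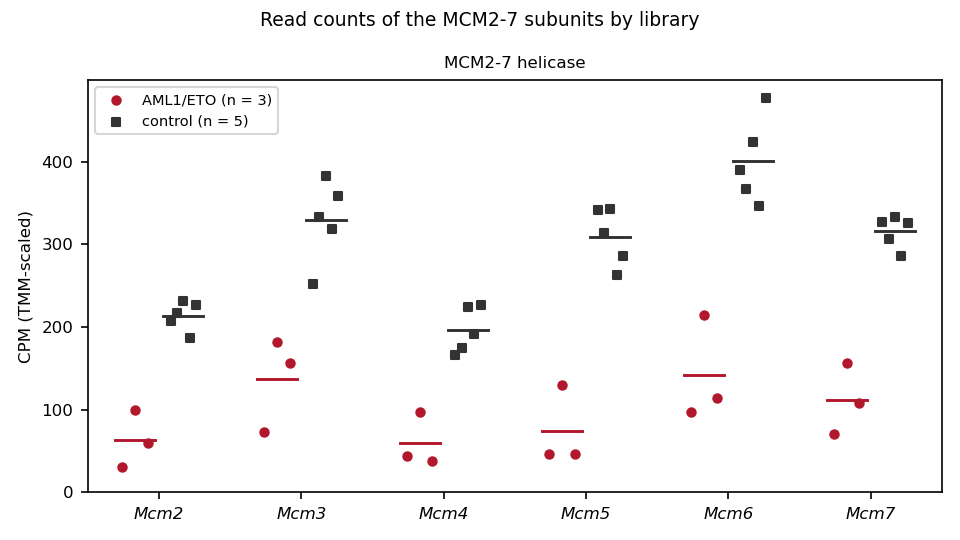
CPM of each MCM2-7 subunit (y axis, from 0) in the 3 AML1/ETO libraries (red circles) and 5 control libraries (black squares), with bars at the group means. For each subunit the highest AML1/ETO library lies below the lowest control, as for Mcm6 at 215 CPM in AML1/ETO against 346 CPM in controls.

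Per kilobase of exon (RPKM, from union exon lengths), Mcm3 averaged 36.6 ± 15.1 RPKM, Mcm6 30.5 ± 13.6, Mcm7 25.3 ± 9.62, Mcm5 18.6 ± 12.0, Mcm4 16.7 ± 9.10 and Mcm2 9.10 ± 4.99 RPKM in AML1/ETO (SD, n = 3), and neighbours in this order lay within their spread. In controls the means were 87.7 ± 13.2 for Mcm3, 85.8 ± 11.0 for Mcm6, 77.4 ± 8.71 for Mcm5, 71.3 ± 4.35 for Mcm7, 54.7 ± 7.72 for Mcm4 and 30.7 ± 2.56 RPKM for Mcm2 (SD, n = 5). There Mcm4 and Mcm2 stood below the others by more than the spread, and Mcm3, Mcm6, Mcm5 and Mcm7 did not separate from their neighbours. The place of Mcm2 below Mcm4 rests on union exon length, 6.956 kb against 3.589 kb. In CPM the control means were 213 for Mcm2 and 196 for Mcm4. Union lengths take in every annotated exon, whether or not these cells use it. The log2 ratio of Mcm6 to Mcm7 within a library was 0.33 ± 0.22 in AML1/ETO and 0.34 ± 0.12 in controls. That of Mcm3 to Mcm5 was 0.95 ± 0.67 in AML1/ETO and 0.08 ± 0.31 in controls, without overlap (exact permutation test over libraries, two-sided, p = 0.0179 and 0.0605 after adjustment over 61 within-complex pairs). The smallest p that 3 against 5 libraries allow is 0.0179. Ratios without overlap were also found for 30.0% of all pairs of tested genes. The non-overlapping ratios named here and below join subunits whose changes already differed in these libraries, so their p-values add no support.

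Among helicase activators, Mcm10, Gins1 and Gins2 fell and the kinase genes did not pass. Mcm10, which binds the activated helicase and polymerase alpha, stood at 10.6, 16.3 and 7.33 CPM in AML1/ETO and 27.1, 58.6, 69.9, 46.3 and 56.9 CPM in controls, which was a 4.54-fold fall between means (log2 fold change −2.18, SE 0.37, adjusted p = 0.00120). GINS is a complex of 4 subunits that binds the MCM ring. Gins1 stood at 2.27, 8.68 and 1.57 CPM in AML1/ETO and 16.3 to 21.2 CPM in controls (log2 fold change −2.13, adjusted p = 0.0185), a call lost under 2 alternatives, at adjusted p up to 0.0620 and at 0.0527 without both first libraries. Gins2 stood at 4.01, 13.3 and 8.31 CPM in AML1/ETO and 18.1 to 23.4 CPM in controls (log2 fold change −1.24, adjusted p = 0.0474). It lost its call under 12 of the 16 alternatives, the highest adjusted p being 0.165, and 67.3% of its exon length is shared with Gse1 on the other strand. Gins3 had no read in AML1/ETO library 1 and 9.37 and 5.17 CPM in libraries 2 and 3, against 5.32 to 15.4 CPM in controls, with overlap and adjusted p = 0.383. Gins4 stood at 14.4, 31.1 and 17.5 CPM in AML1/ETO and 15.6 to 29.6 CPM in controls, with a log2 fold change of −0.16 and an interval of −0.90 to 0.58, which turned to 0.045 without AML1/ETO library 1. Within libraries the log2 ratio of Gins1 to Gins4 was −2.44 ± 0.67 in AML1/ETO and −0.33 ± 0.36 in controls, without overlap (exact permutation p = 0.0179, adjusted 0.0605). Such a lack of overlap held for 30.0% of all pairs of tested genes.

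Cdc45, the third part of the active helicase, stood at 12.3, 11.1 and 0.131 CPM in AML1/ETO and 28.1, 39.5, 48.7, 20.3 and 38.3 CPM in controls. Library 3 had 2 reads of it and the spread was wide (log2 fold change −2.16, SE 0.82, adjusted p = 0.0753). The gene passed under 3 alternatives: without that library (−1.59, adjusted p = 0.0133), with DESeq2 (−2.09, 0.0292) and without a filter (−2.13, 0.0368). With limma-voom the estimate was −4.14 and did not pass (adjusted p = 0.0575). Cdc7, the kinase that phosphorylates the MCM ring, stood at 14.6, 37.8 and 11.7 CPM in AML1/ETO and 21.5 to 30.2 CPM in controls (log2 fold change −0.24, interval −1.07 to 0.59). Its activator Dbf4 stood at 68.3, 48.8 and 34.2 CPM in AML1/ETO and 49.1 to 84.0 CPM in controls (log2 fold change −0.35, interval −0.91 to 0.21). Neither passed, and the direction of Cdc7 turned to 0.048 without AML1/ETO library 3 and to 0.038 without both first libraries.

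In polymerase alpha-primase, which lays down RNA-DNA primers, 3 of 4 subunits fell. Pola1 (chromosome X, 93304767 to 93632155), the catalytic polymerase, stood at 23.0, 42.9 and 26.0 CPM in AML1/ETO and 67.7, 92.7, 112, 112 and 92.4 CPM in controls. Prim1, the catalytic primase, stood at 24.2, 34.0 and 20.01 CPM in AML1/ETO and 43.3, 52.5, 58.1, 62.6 and 62.5 CPM in controls. Prim2, the large primase subunit, stood at 17.2, 15.1 and 12.4 CPM in AML1/ETO and 42.9, 33.0, 46.0, 32.9 and 34.5 CPM in controls. All 3 were apart from the controls, with log2 fold changes of −1.64 (SE 0.26, adjusted p = 0.000835), −1.10 (SE 0.24, adjusted p = 0.00620) and −1.34 (SE 0.26, adjusted p = 0.00278). Pola1 is the only member on a sex chromosome. Pola2, the regulatory B subunit, stood at 84.7, 95.9 and 78.0 CPM in AML1/ETO and 77.7, 69.3, 64.2, 81.4 and 93.2 CPM in controls, with a log2 fold change of 0.16 and an interval of −0.23 to 0.55. The log2 ratio of Pola1 to Pola2 was −1.53 ± 0.36 in AML1/ETO and 0.29 ± 0.40 in controls, without overlap (exact permutation p = 0.0179, adjusted 0.0605). This restates the unlike changes of the 2 genes, and 30.0% of all pairs of tested genes did not overlap either.

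For the replicative polymerases, Pole and Pold2 fell and 3 genes did not pass. Pole (chromosome 5, 110286306 to 110337474), the catalytic subunit of the leading-strand polymerase epsilon, stood at 34.9, 23.5 and 13.5 CPM in AML1/ETO and 126, 106, 72.7, 95.4 and 82.5 CPM in controls. The fall was 4.03-fold between means (log2 fold change −2.01, SE 0.31; adjusted p = 0.000666). Pole2, an accessory subunit of it, overlapped between the groups, at 5.43 to 12.8 CPM in AML1/ETO and 6.81 to 18.1 CPM in controls (log2 fold change −0.55, interval −1.63 to 0.52). Pold1, the catalytic subunit of the lagging-strand polymerase delta, was below every control by a small margin, at 78.7, 111 and 116 CPM in AML1/ETO and 120 to 150 CPM in controls, and did not pass (log2 fold change −0.41, adjusted p = 0.110). With library totals as the scaling it passed (−0.55, adjusted p = 0.0451). Pold2, which links the subunits of polymerase delta, averaged 31.5 ± 12.9 CPM in AML1/ETO and 59.0 ± 8.45 CPM in controls (log2 fold change −0.90, adjusted p = 0.0279), a call lost under 7 alternatives at adjusted p up to 0.0988. Its groups overlapped, with 46.3 CPM in AML1/ETO library 2 and 45.4 CPM in control library 4. Pold3, an accessory subunit of polymerase delta, overlapped between the groups, at 44.6 to 81.6 CPM in AML1/ETO and 57.4 to 101 CPM in controls (adjusted p = 0.228).

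Pcna, which encodes the sliding clamp, did not pass. The gene (chromosome 2, 132249162 to 132253314) stood at 337, 411 and 342 CPM in AML1/ETO and 270, 341, 425, 325 and 376 CPM in controls, the groups overlapping throughout. Its log2 fold change was 0.06 with an interval of −0.30 to 0.42, it turned to −0.080 with library totals as the scaling and to −0.041 without AML1/ETO library 2, and it had the highest RPKM of the 45 genes in both groups (151 ± 17.2 RPKM in AML1/ETO and 145 ± 24.2 RPKM in controls). Processed copies of Pcna took few reads: Pcna-ps2 had 24 to 42 in AML1/ETO and 28 to 61 in controls, and Pcna-ps1 had none.

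The genes of RFC, the clamp loader, did not share a direction: Rfc3 and Rfc4 fell and Rfc2 rose. Rfc2 (chromosome 5, 134581366 to 134601805), a small ATPase subunit, stood at 235, 180 and 266 CPM in AML1/ETO and 139, 128, 151, 134 and 160 CPM in controls. It was the only member that rose, by 1.59-fold (log2 fold change 0.67, SE 0.16, adjusted p = 0.00981), and missed the threshold without AML1/ETO library 3 (0.53, adjusted p = 0.0549). Rfc4, another small subunit, stood at 11.6, 10.7 and 9.22 CPM in AML1/ETO and 24.9, 17.01, 28.2, 31.4 and 30.2 CPM in controls (log2 fold change −1.33, SE 0.32, adjusted p = 0.00937), a call lost under 2 alternatives, with limma-voom (adjusted p = 0.0711) and at a highest adjusted p of 0.135. Rfc3, also a small subunit, stood at 11.7, 14.1 and 26.1 CPM in AML1/ETO and 32.2 to 42.1 CPM in controls (log2 fold change −1.08, adjusted p = 0.0225), a call lost under 7 alternatives at adjusted p up to 0.0707. Rfc5, the other small subunit, spanned 8.93 to 58.9 CPM among AML1/ETO libraries, against 50.6 to 72.5 CPM in controls, and passed only without AML1/ETO library 3 (log2 fold change −0.89 with it and −1.63 without it, adjusted p = 0.165 and 0.0163). Rfc1, the large subunit, was below every control at 53.8 to 84.4 CPM in AML1/ETO against 88.4 to 103 CPM in controls, with adjusted p = 0.0543. It passed with library totals as the scaling (adjusted p = 0.0229) and without AML1/ETO library 2 (0.0182). The log2 ratio of Rfc2 to Rfc4 was 4.36 ± 0.39 in AML1/ETO and 2.44 ± 0.29 in controls, and that of Rfc2 to Rfc3 was 3.74 ± 0.48 in AML1/ETO and 1.95 ± 0.23 in controls, both without overlap (exact permutation p = 0.0179 each, adjusted 0.0605). Both ratios restate the opposite calls of these genes, and 30.0% of all pairs of tested genes did not overlap. The exons of Rfc2 share 15.1% of their length with Lat2 on the other strand and those of Rfc4 share 12.7% with Eif4a2, and reads there cannot be told apart without strand.

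**Figure D4:**
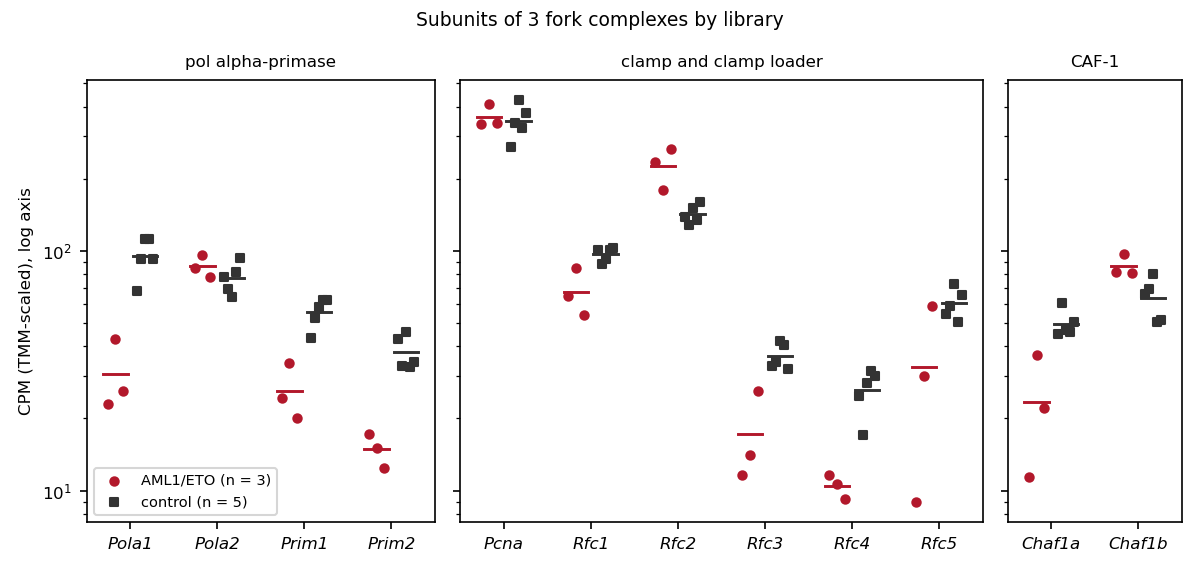
CPM (log axis) of the subunits of polymerase alpha-primase, of the clamp Pcna with its RFC loader, and of CAF-1, in AML1/ETO libraries (red circles, n = 3) and control libraries (black squares, n = 5), with bars at the means. Pola2, Pcna and Rfc5 overlap the controls, Rfc2 and Chaf1b lie above them, and Pola1, Prim1, Prim2, Rfc1, Rfc3, Rfc4 and Chaf1a lie below.

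RPA coats the unwound strand, and none of its 3 genes passed. Rpa1, the large subunit, stood at 38.5, 93.1 and 88.4 CPM in AML1/ETO and 93.3, 130, 127, 143 and 132 CPM in controls, and Rpa2, the middle one, at 26.5, 52.0 and 59.8 CPM in AML1/ETO and 62.1 to 101 CPM in controls. Both were below every control, Rpa1 in its nearest pair at 93.1 CPM in AML1/ETO and 93.3 CPM in controls, with log2 fold changes of −0.77 (adjusted p = 0.0572) and −0.74 (adjusted p = 0.0670). Rpa1 passed under 6 of the 16 alternatives and Rpa2 under 2, at lowest adjusted p of 0.0217 and 0.0374. Rpa3, the small subunit, overlapped between the groups, at 5.91 to 17.5 CPM in AML1/ETO and 7.84 to 28.0 CPM in controls.

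Lig1 (chromosome 7, 13277283 to 13311433), the ligase that seals lagging-strand fragments, had the smallest adjusted p of the 45 genes. It stood at 32.7, 58.5 and 20.3 CPM in AML1/ETO and 182, 193, 195, 189 and 156 CPM in controls, which was a 4.92-fold fall between means (log2 fold change −2.30, SE 0.30, adjusted p = 0.000216). The groups were far apart, and the call held under every alternative, at log2 fold changes from −2.80 to −2.01. Fen1, the flap nuclease that trims the fragment before ligation, stood at 4.62, 2.25 and 6.41 CPM in AML1/ETO and 15.0, 13.4, 5.06, 13.7 and 3.38 CPM in controls, with overlap and adjusted p = 0.227. Of the exon length of Fen1, 84.2% is shared with genes on the other strand, among them Tmem258, and reads there cannot be told apart without strand.

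CAF-1 deposits histones H3 and H4 behind the fork. Its large subunit Chaf1a stood at 11.4, 36.6 and 22.1 CPM in AML1/ETO and 44.8, 60.3, 46.9, 45.8 and 50.5 CPM in controls, and fell (log2 fold change −1.08, SE 0.33, adjusted p = 0.0314). The call was lost under 8 alternatives at adjusted p up to 0.0830, and 52.5% of its exon length is shared with Ubxn6 on the other strand. Chaf1b, the middle subunit, stood at 81.5, 97.4 and 80.6 CPM in AML1/ETO and 65.9, 69.4, 79.8, 50.5 and 51.4 CPM in controls. Each AML1/ETO library was above each control, the nearest pair being 80.6 CPM in AML1/ETO and 79.8 CPM in controls, and the gene did not pass (log2 fold change 0.45, SE 0.20, adjusted p = 0.118). The log2 ratio of Chaf1a to Chaf1b was −2.01 ± 0.70 in AML1/ETO and −0.34 ± 0.31 in controls (exact permutation p = 0.0179, adjusted 0.0605). It did not overlap between the groups, as was so for 30.0% of all pairs of tested genes.

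Over all complexes, 21 of 61 pairs of subunits had log2 ratios that did not overlap between the groups. Of all pairs of tested genes 30.0% did so, so the share within these complexes, 34.4%, was near that of all gene pairs. Pairs that did not overlap numbered 3 of 15 in ORC, 3 of 15 in MCM2-7, 4 of 6 in GINS, 4 of 6 in polymerase alpha-primase, 5 of 10 in RFC, 0 of 3 in polymerase delta and 0 of 3 in RPA, besides the only pairs of polymerase epsilon and CAF-1, which did not overlap, and of CDC7-DBF4, which did. None of the 61 passed after adjustment, the smallest adjusted p being 0.0605. As 3 against 5 libraries allow no p under 0.0179, whether any pair can pass depends on how many share that floor. Missing the threshold thus says little about a single ratio. The count of 21 non-overlapping pairs was the same under both other pseudocounts and with DESeq2 size factors.

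The AML1/ETO libraries varied more among themselves than the controls did. The median coefficient of variation of the 45 genes was 41.3% in AML1/ETO and 15.2% in controls, and 37 genes had the larger value in AML1/ETO. Library 2 was the highest of the AML1/ETO libraries for 25 genes and library 1 the lowest for 22. Median member log2 deviations from the control mean were −1.11, −0.67 and −0.98 in AML1/ETO libraries 1 to 3, and −0.12 to 0.14 in controls. Gmnn and Gins3 were at 0 reads in AML1/ETO library 1, and no member was at 0 elsewhere.

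Other genes of replication gave a like count. Of 41 further genes of initiation, fork protection, clamp exchange and chromatin replication, 20 fell and 1 rose, against 14.2% and 11.6% of tested genes, with a median log2 fold change of −0.94. Clspn, the checkpoint mediator claspin, stood at 4.32, 11.2 and 9.03 CPM in AML1/ETO and 49.8 to 81.1 CPM in controls (log2 fold change −3.05, adjusted p = 7.54e-05). Ticrr, which encodes treslin and helps load CDC45, fell with a log2 fold change of −1.99 (adjusted p = 0.0128), a call lost without both first libraries (0.0592). Uhrf1, which guides maintenance methylation, fell with a log2 fold change of −1.90 (adjusted p = 0.000960). Primpol, a repriming primase, rose to 37.3, 24.7 and 27.0 CPM in AML1/ETO, against 9.57 to 21.5 CPM in controls (log2 fold change 1.09, adjusted p = 0.0294), a call lost under 8 of the 16 alternatives at adjusted p up to 0.157. Recql4 and Mcm8, a helicase of initiation and an MCM paralogue of repair, had log2 fold changes of −2.66 and −1.41 and did not pass (adjusted p = 0.0566 and 0.0963). Recql4, with no read in AML1/ETO library 1, passed under 6 alternatives, at a lowest adjusted p of 0.00782 without that library.

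Most listed genes of mitosis fell. Of 15, 10 fell and none rose, where 14.2% and 11.6% of tested genes did, and their summed level was 437 to 906 CPM in AML1/ETO and 1603 to 1806 CPM in controls. Mki67, a marker of cycling cells, stood at 263, 236 and 124 CPM in AML1/ETO and 521 to 750 CPM in controls (log2 fold change −1.60, SE 0.24, adjusted p = 0.000496).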

How the data were processed

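The authors deposited 1 table of raw read counts, with a gene per row and a library per column. Aligner, counter and build were HISAT2 2.0.5, featureCounts 1.5.0-p3 and mm10, per the submitters' processing notes; annotation release, strand setting and handling of multiply aligned reads: not given in the sources used here. Per the labels' protocols, libraries were prepared with NEBNext Ultra. The members and lists were chosen with earlier results of these data known. All 45 members are named. Of further replication genes, the 3 largest falls and up to 3 rises past the threshold are named. So are their 2 largest changes that missed it at a mean of 5 CPM or more. Of the other lists, Kit, Ly6a, Mki67 and defining lineage markers are named. Gata2 and Ighm are added because they led the sums of their lists in controls.

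Counts of 54532 genes were filtered with filterByExpr to 15009, scaled with TMM and tested with edgeR 4.0.16 (R 4.3.3; glmQLFit, glmQLFTest, two-sided, no covariates, all 8 libraries), with Benjamini-Hochberg adjustment over all tested genes and a threshold of 0.05. The common biological coefficient of variation was 72.6%. Standard errors were derived from the F statistic and 95% intervals from its degrees of freedom; floors at 0 reads (3 counts) cover counting error only. Fold changes between means are ratios of mean CPM. Within-library ratios used log2 of CPM plus 0.5. Coordinates and exon lengths came from GENCODE M21, promoters from RefSeq (GRCm38.p6). The procedure was tested on simulated data. Alternatives were limma-voom with quality weights (limma 3.58.1), DESeq2 1.42.0, DESeq2 size factors, library totals, 2 other filters, each library left out, both first libraries left out and the replicate number as a block, 16 in all; for the within-complex ratios, other pseudocounts, DESeq2 size factors and leaving out each library were chosen after seeing the data. No sample column was left unused.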

Additional observations from a re-analysis of the deposited data

Results flagged for a closer look

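In 3 of the 45 genes a control library stood apart from the other 4 by more than Dixon's critical value of 0.71 for 5 libraries, a limit that chance passes in about 1 of 20 groups, and in each it was control library 1. Orc1 was at 27.4 CPM there, against 15.0 CPM in the next control. Orc3 was at 61.1 CPM, against 77.4 CPM in the nearest control. Pold3 was at 57.4 CPM, against 92.1 CPM in the nearest control. Without control library 1 the log2 fold changes (AML1/ETO over control) were −0.98 for Orc1, −0.20 for Orc3 and −0.53 for Pold3, and none of the 3 passed (edgeR adjusted p = 0.201, 0.527 and 0.102).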

How the results depend on the processing

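Of the 20 members that fell, 13 did so under all 16 alternatives: Cdc6, Cdt1, Mcm2 to Mcm7, Mcm10, Pola1, Prim2, Pole and Lig1. The count of fallen members ran from 16 to 22 on leaving out 1 library. With the replicate number as a block, 13 members, 11 further replication genes and 1098 of all genes fell, and 1, 0 and 951 rose; Prim1 (adjusted p = 0.0720), Gins1 (0.0620), Gins2 (0.165), Pold2 (0.0706), Rfc3 (0.0707), Rfc4 (0.135) and Chaf1a (0.0523) lost their calls under the block. Deviations of same-numbered libraries correlated at 0.086, −0.050 and 0.073. AML1/ETO libraries 1 and 3 correlated best with the control of their own number, and library 2 with control library 3 (0.089). Correlations this small do not settle whether the numbers pair the libraries. Risen members numbered 2 with DESeq2, DESeq2 size factors and the 1 CPM filter, and from 0 to 2 on leaving out 1 library. Further risen replication genes numbered 2 with DESeq2, limma-voom, DESeq2 size factors and the 1 CPM filter, 3 without both first libraries, 0 with library totals, and 0 to 1 on leaving out 1 library. The members' median log2 fold change was −1.22 with library totals, which shifted all genes by −0.15, −0.93 without both first libraries, and −1.23 to −0.87 on leaving out 1 library. Of 720 member values under alternatives, 645 kept direction and call, 40 lost the call, 28 gained it and 7 changed sign. The sign changes, all of genes that did not pass, were Orc2 (−0.063) and Pcna (−0.080) with library totals, Cdc7 (0.038) without both first libraries, and Orc2, Cdc7, Gins4 and Pcna with 1 library left out, where they ran from −0.027 to 0.20, −0.95 to 0.048, −0.56 to 0.045 and −0.041 to 0.18. Non-overlapping pairs within complexes ran from 22 to 28 on leaving out 1 library. The CPM were not rescaled there, so leaving out a library could only keep or raise this count. It is therefore no check of the pairs. The cause of the other shifts was not tested. Means of Orc1, Gmnn, Cdc45, Gins1, Gins2, Gins3, Pole2 and Fen1 were under 10 CPM in AML1/ETO. What depth adds to their spread was not tested.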
